A study of Mus musculus with 16 samples.

Results

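The 33 genes described here mark or act in endothelial cells, the cells that line blood vessels and lymph vessels. They were taken as a named list of receptors, secreted proteins, junction and surface proteins, enzymes and signalling proteins, and transcription factors, and each gene was read from the probe set with its highest mean signal. All 33 had a probe set, and 27 had a mean signal over the filter on low signals, out of 11265 genes tested in all. The other 6, Tie1, Vwf, Plvap, Gpihbp1, Sox17 and Tal1, lay under that filter and are given apart.

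In a growing ovarian follicle the capillaries run in the theca, the outer layer, while the granulosa cells and the oocyte inside the basement membrane have no vessels of their own. Vascular endothelial growth factor made by follicle cells acts through the receptor Kdr, angiopoietins act through Tek, and transcription factors of the ETS and SOX families keep endothelial genes switched on. Cdh5 and Pecam1 hold neighbouring endothelial cells together, and the sialomucin Emcn coats those of capillaries and veins.

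The series asked what anti-Müllerian hormone (AMH), a growth factor of the TGF-β family made by granulosa cells, does to transcripts of isolated follicles. Preantral to small antral follicles of C57BL/6Tac females, aged 8 weeks by the sample labels and 6 to 8 weeks by the design text, were pooled from 8 mice for each experiment and cultured as single drops. The groups were follicles with 50 ng/ml recombinant AMH for 24 h, their untreated controls at 24 h, follicles with 50 ng/ml AMH for 12 h and their untreated controls at 12 h, with 4 arrays each from 4 experiments. The medium of every group held 80 IU/L follicle-stimulating hormone and 10 IU/L luteinizing hormone, each sample was 6 to 9 whole follicles, and 5 ng of their RNA was amplified for 1 array. The vessels in such a culture carry no blood flow. In whole follicles, fewer endothelial cells and less RNA per endothelial cell cannot be told apart.

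Values below are log2(signal + 1.46), written as log2 level, and a change is a difference of such levels, so that folds of dim genes are understated. A gene counts as called when the p of its limma fit, adjusted over all 11265 genes by the Benjamini-Hochberg method, was under 0.05. The arrays had been scaled to a shared trimmed mean before deposit, their median signal ranged between 27.8 and 40.2, and log2 levels of arrays of a group correlated at 0.955 to 0.976. The number of arrays, 4 a group, limits the precision.

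Most of the defining endothelial transcripts were measured in every group. Cdh5 (VE-cadherin), Pecam1 (CD31), Kdr, Tek, Emcn, Cldn5, Esam and Egfl7 all lay over the filter level of 4.80 in their group means. Tie1, the partner receptor of Tek, lay under it at 4.28, and Vwf, the clotting factor stored in the endothelium of larger vessels, at 3.95. Cd34, Fli1, Lmo2, Tal1, Icam2 and Pecam1 are also made by blood cells or their precursors. Ptprc (CD45), which marks all leukocytes, stayed under the filter level in all 16 arrays, with log2 levels of 2.84 to 4.34 in AMH-treated follicles and 1.94 to 3.66 in controls at 24 h, and of 3.01 to 3.72 in AMH-treated follicles and 0.81 to 3.90 in controls at 12 h. Of 15 listed leukocyte genes 9 did lie over the filter, among them Cd68 of macrophages, with log2 levels of 6.00 to 7.01 in AMH-treated follicles and 5.89 to 6.54 in controls at 24 h. The haemoglobin gene Hba-a1 did not exceed 2.45 in any array.

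The endothelial genes went up and down together from array to array. Averaged over the 27 genes, the log2 level at 24 h was 6.19, 7.14, 7.24 and 6.52 in replicates 1 to 4 with AMH, against 6.34, 6.29, 6.82 and 6.70 in controls. At 12 h it was 5.90, 6.43, 7.48 and 7.08 with AMH, against 6.36, 6.68, 7.82 and 7.29 in controls. Replicate 3 at 12 h stood highest in both arms, and all 4 groups overlapped. The control array of that pair held the highest level of 19 of the 27 genes, and the AMH array of replicate 1 at 12 h the lowest level of 10. The fold between the highest and the lowest array was 3.32 for Ramp2, 5.2 as the median and 19.6 for Apln.

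Apln, which encodes the secreted peptide apelin, did not follow the rest. Its log2 levels were 4.69, 8.14, 7.49 and 8.18 with AMH at 24 h, against 8.98, 7.47, 7.65 and 6.72 in controls at 24 h. At 12 h they were 5.47, 7.86, 5.65 and 7.70 with AMH, against 7.55, 5.51, 4.83 and 8.12 in controls. Its lowest level of the controls at 12 h came in replicate 3, where 19 other endothelial genes had their highest. The apelin receptor Aplnr did follow the others at 12 h, with 9.34 in replicate 3 with AMH and 9.61 in its control.

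**Figure D1:**
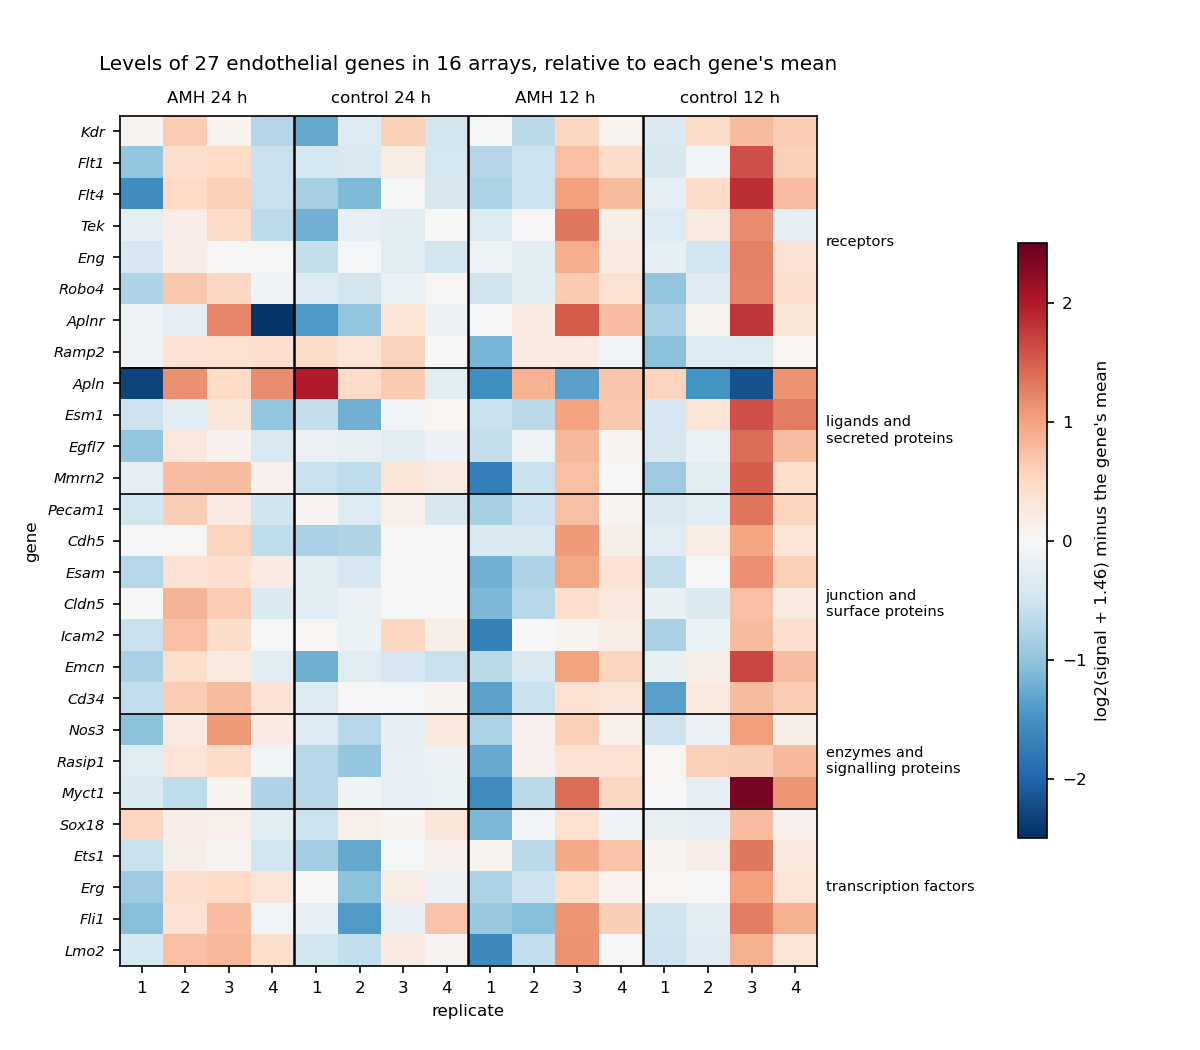
Log2 level of 27 endothelial genes (rows, grouped by role) in 16 arrays (columns, by group and replicate), each minus the gene's own mean over all arrays. Replicate 3 of the controls at 12 h is the reddest column, with the highest level of 19 of the 27 genes, and Apln and Ramp2 lie below their own means there.

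At 12 h the endothelial genes lay mostly below control in AMH-treated follicles, but none passed the test. Of the 27 genes, 23 had a change below 0, against 48.0% of all genes tested, and the median change was -0.39, against 0.01 over all genes. By limma 0 endothelial genes were called (0% of all genes were), and 6 had an unadjusted p under 0.05, all below 0, against 6.63% of all genes. Of the 27 genes, 10 lay below control in 4 of 4 pairs, against 7.74% of all genes: Emcn, Erg, Esam, Esm1, Fli1, Flt1, Mmrn2, Myct1, Pecam1 and Rasip1. The median change over the 27 genes was -0.44, -0.35, -0.40 and -0.22 in pairs 1 to 4, so each pair pointed the same way.

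Emcn had the smallest p of the 27 at 12 h. Its log2 levels were 7.56, 7.85, 9.24 and 8.79 with AMH, against 8.06, 8.38, 9.91 and 9.01 in controls. The AMH array lay below its own control in all 4 pairs, while the groups overlapped because the pairs differed more than the arms did. The change was -0.48 (SE 0.12), which is 1.39-fold lower, with an adjusted p of 0.455.

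Myct1, a small membrane protein gene that endothelial cells use in angiogenesis in mice, had the largest difference of the 27 at 12 h. Its log2 levels were 4.09, 4.98, 7.05 and 6.17 with AMH, against 5.65, 5.41, 8.03 and 6.76 in controls, so the arms overlapped but every pair had the AMH array lower. The change was -0.89 (SE 0.25, adjusted p = 0.538), or 1.86-fold lower. A second Myct1 probe set over the filter gave -0.43. Rasip1, which encodes an effector of Ras and Rap1 needed for vessel lumens in mice, had log2 levels of 5.02, 6.39, 6.65 and 6.66 with AMH, against 6.33, 6.88, 6.90 and 7.09 in controls. Its change was -0.62 (SE 0.23, adjusted p = 0.664), with a pair difference of -1.31 in replicate 1 and between -0.50 and -0.25 in the others.

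The promoters of Emcn, Myct1 and Rasip1 are shown because these genes had the smallest p values of the 27 with AMH at 12 h. They were taken from RefSeq's annotation of mouse build GRCm38.p6, on the strand of the gene, from 250 bases before the start of the transcript to 50 after it, 300 bases each. That of Emcn lies at chr3:137340828-137341127 and Rasip1 at chr7:45627287-45627586, and Myct1 at chr10:5593478-5593777, all on the plus strand. Capitals mark the ETS-type hexamer GGAAGT on either strand, which Myct1 holds once, on the minus strand, from position -6, while it is not in these windows of Emcn and Rasip1.
Emcn: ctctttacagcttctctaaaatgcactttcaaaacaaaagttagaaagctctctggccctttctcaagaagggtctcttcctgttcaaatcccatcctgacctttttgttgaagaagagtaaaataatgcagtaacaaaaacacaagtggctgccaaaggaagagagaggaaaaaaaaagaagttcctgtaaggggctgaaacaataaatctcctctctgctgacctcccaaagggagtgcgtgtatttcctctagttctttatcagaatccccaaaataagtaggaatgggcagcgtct
Rasip1: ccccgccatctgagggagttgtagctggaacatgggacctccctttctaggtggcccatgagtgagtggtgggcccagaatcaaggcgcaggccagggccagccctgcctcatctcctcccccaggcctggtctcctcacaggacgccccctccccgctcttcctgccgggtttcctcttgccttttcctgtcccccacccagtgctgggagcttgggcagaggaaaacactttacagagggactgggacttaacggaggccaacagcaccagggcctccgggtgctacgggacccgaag
Myct1: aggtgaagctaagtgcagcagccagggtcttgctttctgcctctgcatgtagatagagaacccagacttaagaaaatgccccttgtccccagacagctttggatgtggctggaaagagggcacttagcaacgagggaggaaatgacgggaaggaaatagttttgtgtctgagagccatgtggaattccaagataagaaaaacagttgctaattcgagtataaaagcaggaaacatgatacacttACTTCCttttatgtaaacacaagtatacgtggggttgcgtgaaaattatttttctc

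The RefSeq table held a promoter for 17 of the 33 endothelial genes, and 5 hexamers were searched on both strands. GGAAGT stood in 6 of the 17 (35.3%; Egfl7, Eng, Flt1, Kdr, Myct1 and Tie1), against 24.1% of 26742 promoters of the same length. The other ETS form CCGGAA stood in 5.88%, against 15.3% of all promoters. The GATA-type AGATAA stood in 17.6% (Myct1, Tal1 and Tek), against 11.4%, the SOX-type ACAAAG in 17.6%, against 18.7%, and TATAAA in 11.8%, against 14.1%. A CCGGAA followed by GT holds both ETS hexamers, which then overlap.

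Mmrn2, an extracellular matrix protein of vessels, had log2 levels of 3.98, 5.13, 6.45 and 5.71 with AMH, against 4.78, 5.39, 7.21 and 6.14 in controls. The change was -0.56 (SE 0.25, adjusted p = 0.723), while its other probe set over the filter gave 0.18. Esm1, a proteoglycan of sprouting tip cells, had log2 levels of 6.48, 6.37, 8.04 and 7.72 with AMH, against 6.63, 7.37, 8.65 and 8.34 in controls, and a change of -0.60 (SE 0.27, adjusted p = 0.738). In both genes every pair had the AMH array lower.

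By role, the 7 measured junction and surface proteins all had changes below 0 at 12 h, with a median of -0.40. Pecam1 had log2 levels of 5.99, 6.29, 7.55 and 6.88 with AMH, against 6.46, 6.52, 8.15 and 7.38 in controls, and its change was -0.45 (SE 0.21, adjusted p = 0.763). Cdh5 had 8.04, 8.03, 9.48 and 8.56 with AMH, against 8.11, 8.61, 9.41 and 8.75 in controls, and a smaller change of -0.19 (SE 0.21, adjusted p = 0.922). The tight junction gene Cldn5 had -0.39, the junction gene Esam -0.45, the adhesion gene Icam2 -0.40 and Cd34 -0.38. All 5 measured transcription factors lay below 0 too, with Ets1 at -0.18, Fli1 at -0.41, Lmo2 at -0.38, Sox18 at -0.34 and Erg at -0.55. Nos3, the endothelial nitric oxide synthase, stood at -0.12.

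The 8 measured receptors were split at 12 h, with 5 below 0 and a median of -0.04. The receptors of vascular endothelial growth factors all lay below 0, with Flt1 at -0.46 (SE 0.21), Flt4 at -0.59 (SE 0.32) and Kdr at -0.41 (SE 0.32). Kdr had log2 levels of 6.70, 6.06, 7.26 and 6.82 with AMH, against 6.37, 7.22, 7.52 and 7.38 in controls, and pair 1 ran the other way. Tek had 5.22, 5.59, 6.89 and 5.71 with AMH, against 5.22, 5.78, 6.74 and 5.31 in controls, and a change of 0.09 (SE 0.26). Ramp2, the partner protein of the adrenomedullin receptor, stood at 0.21, Aplnr at 0.27, the TGF-β co-receptor Eng at -0.05 and the guidance receptor Robo4 at -0.02.

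At 24 h most signs were the other way, again with no endothelial gene past the test. Of the 27 genes, 23 had a change above 0, against 52.3% of all genes, and the median change was 0.31, against 0.01 over all genes. By limma 0 endothelial genes were called, against 0.0178% of all genes, and Emcn, Rasip1 and Lmo2 had an unadjusted p under 0.05, which 4.10% of all genes had. Emcn, Eng, Lmo2 and Rasip1 lay above control in 4 of 4 pairs, against 6.12% of all genes. The pairs did not point one way at 24 h: the median change over the 27 genes was 0.03, 0.91, 0.41 and -0.11 in pairs 1 to 4, with 14, 26, 23 and 9 genes higher with AMH. Pair values at 24 h rest on the stated pairing, which the correlations over all genes within pairs 1 and 4, both below 0, did not show. Without replicate 2 the median was 0.04 and 15 of 27 genes lay above 0.

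Emcn had log2 levels of 7.42, 8.67, 8.48 and 7.97 with AMH at 24 h, against 7.02, 7.94, 7.82 and 7.68 in controls. The AMH array lay above its control in every pair, and the change was 0.52 (SE 0.12, adjusted p = 0.618), or 1.43-fold higher. Rasip1 had 5.98, 6.62, 6.75 and 6.21 with AMH, against 5.58, 5.32, 6.08 and 6.14 in controls. Its change was 0.61 (SE 0.23, adjusted p = 1), with pair differences between 0.07 and 1.31.

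Lmo2, a transcription cofactor of endothelial and blood cells, had log2 levels of 5.62, 6.80, 6.89 and 6.49 with AMH at 24 h, against 5.59, 5.43, 6.25 and 6.12 in controls. The change was 0.60 (SE 0.26, adjusted p = 1). Mmrn2 had 5.45, 6.47, 6.48 and 5.81 with AMH, against 5.13, 5.05, 6.00 and 5.91 in controls, with a change of 0.53 (SE 0.25, adjusted p = 1) and 0.62 in its other probe set. For both, replicate 2 held the widest gap between arms, at 1.37 for Lmo2 and 1.42 for Mmrn2.

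Again the 7 junction and surface proteins and the 5 transcription factors all had one sign at 24 h, now above 0, with medians of 0.37 and 0.32. Cdh5 had log2 levels of 8.43, 8.45, 8.98 and 7.79 with AMH, against 7.60, 7.67, 8.41 and 8.36 in controls. Its change was 0.40 (SE 0.21, adjusted p = 1), and pair 4 ran the other way. Pecam1 had 6.37, 7.44, 7.03 and 6.33 with AMH, against 6.88, 6.47, 6.95 and 6.42 in controls. Its change was 0.11 (SE 0.21), and without replicate 2 it was -0.18.

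Of the 8 receptors 7 lay above 0 at 24 h, with a median of 0.30. Kdr had log2 levels of 6.80, 7.37, 6.82 and 6.00 with AMH, against 5.45, 6.40, 7.34 and 6.28 in controls, which gave a change of 0.38 (SE 0.32) with 2 pairs on each side. Tek had 5.31, 5.72, 6.05 and 4.91 with AMH, against 4.37, 5.35, 5.30 and 5.55 in controls, and a change of 0.35 (SE 0.26). Eng stood at 0.30 (SE 0.15), Flt4 at 0.33, Robo4 at 0.31, Aplnr at 0.15, Flt1 at 0.12 and Ramp2 at -0.08. Nos3 stood at 0.36. Myct1, which had the largest difference at 12 h, had 5.28, 5.02, 5.75 and 4.88 with AMH at 24 h, against 4.95, 5.56, 5.45 and 5.50 in controls, and a change of -0.13 (SE 0.25). Esm1 had log2 levels of 6.53, 6.77, 7.35 and 6.08 with AMH, against 6.45, 5.84, 6.97 and 7.10 in controls, and a change of 0.09 (SE 0.27). Egfl7 had a change of -0.06, and Apln had -0.58 with the widest error of all (SE 0.85).

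**Figure D2:**
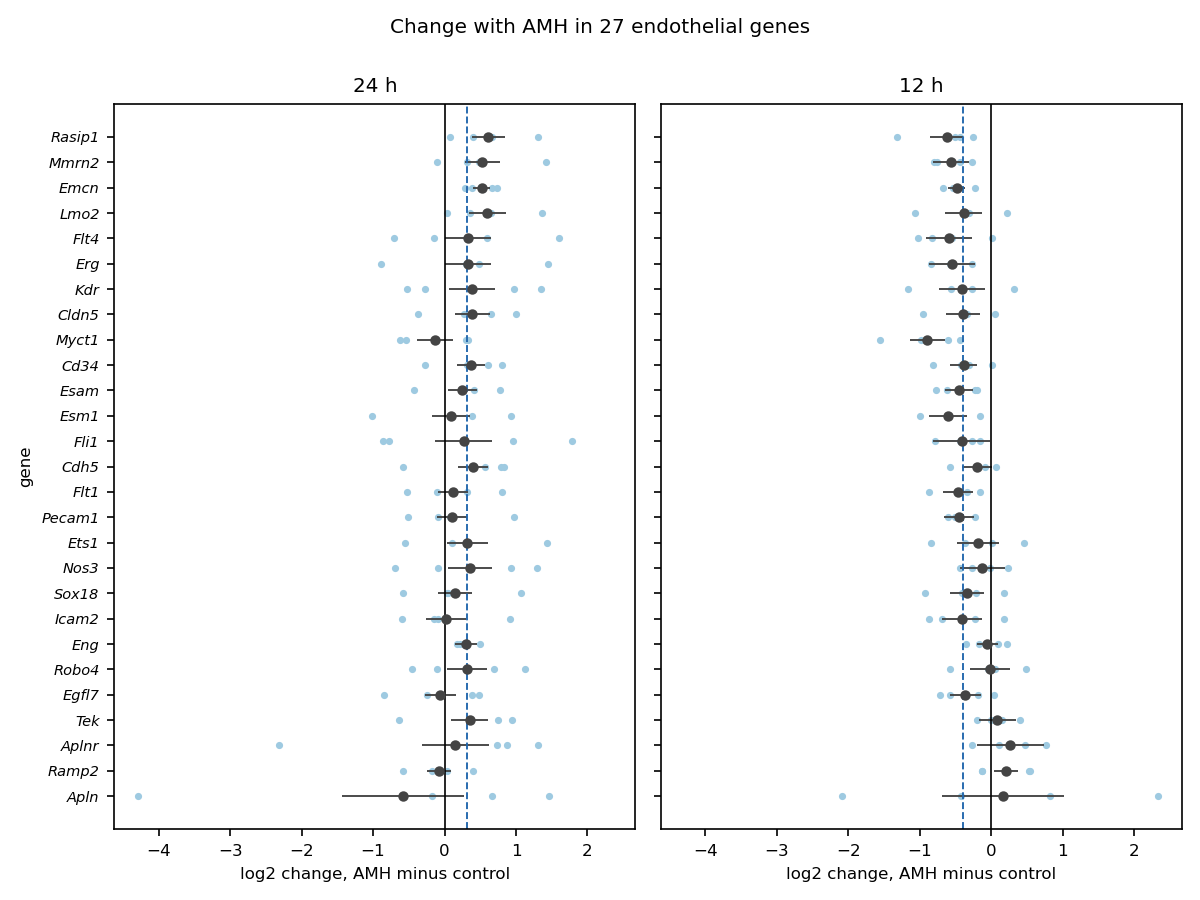
Log2 change with AMH of 27 endothelial genes at 24 h (left) and 12 h (right). Dark points are the fitted change with its standard error, light points the 4 pairs, and the dashed line the median of the 27 genes, 0.31 at 24 h and -0.39 at 12 h. Most genes lie right of 0 at 24 h and left of 0 at 12 h, and the pairs spread more widely at 24 h.

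The difference between the AMH effect at 24 h and that at 12 h asks whether the change with AMH depended on time. It lay above 0 for 24 of the 27 endothelial genes, against 49.9% of all genes, with a median of 0.60 against 0.00 over all genes. By limma 0 endothelial genes passed, as did 0% of all genes, and 7 had an unadjusted p under 0.05, all above 0, against 5.76% of all genes. Emcn had the smallest p of the 27, with a difference of 1.00 (SE 0.17, unadjusted p = 0.000142, adjusted p = 0.229). Rasip1 had 1.23 (SE 0.33, adjusted p = 0.495), Mmrn2 1.10 (SE 0.35, adjusted p = 0.657) and Lmo2 0.99 (SE 0.36, adjusted p = 0.784). At 12 h Lmo2 had log2 levels of 4.46, 5.43, 7.17 and 6.01 with AMH, against 5.53, 5.74, 6.95 and 6.39 in controls. Cd34, Esam and Cldn5 followed with 0.74, 0.70 and 0.78, and only Apln, Ramp2 and Aplnr of the 27 had a difference below 0. For Aplnr it was -0.12, while its second probe set gave 0.35. The difference between the effects is also the time change with AMH minus the time change in controls. It thus shares all its arrays with the comparisons of time.

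Emcn and Rasip1 were the only endothelial genes that lay above control in 4 of 4 pairs at 24 h and below it in 4 of 4 pairs at 12 h, a pattern that 0.621% of all genes had. With array weights, which count noisy arrays less, Emcn passed for the difference (1.10, adjusted p = 0.029) as 1 of 22 genes called.

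Averaged over both times, the endothelial genes showed little net change with AMH. The median over the 27 genes was -0.02, against 0.01 over all genes, with 17 below 0, against 46.9% of all genes. The count below 0 was 9 without replicate 1, 9 with array weights and 21 without replicate 2. By limma 0 were called (0% of all genes), and only Myct1 had an unadjusted p under 0.05, which 4.89% of all genes had. Myct1 had a mean change of -0.51 (SE 0.18, adjusted p = 0.927) and was lower with AMH in 6 of 8 pairs. Next came Egfl7, a secreted regulator of vessel tubes, at -0.21 (SE 0.15), Esm1 at -0.25 (SE 0.19) and Tek at 0.22 (SE 0.18), each with an adjusted p of 0.999.

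Egfl7 is one of the brighter members with 4 probe sets over the filter. Its log2 levels were 6.59, 7.87, 7.69 and 7.19 with AMH at 24 h, against 7.43, 7.39, 7.30 and 7.44 in controls at 24 h. At 12 h they were 6.99, 7.45, 8.39 and 7.65 with AMH, against 7.17, 7.41, 8.97 and 8.36 in controls. The 4 controls at 24 h lay closest together. Its 3 other probe sets gave changes between -0.53 and -0.30 at 12 h and between -0.30 and -0.13 at 24 h.

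**Figure D3:**
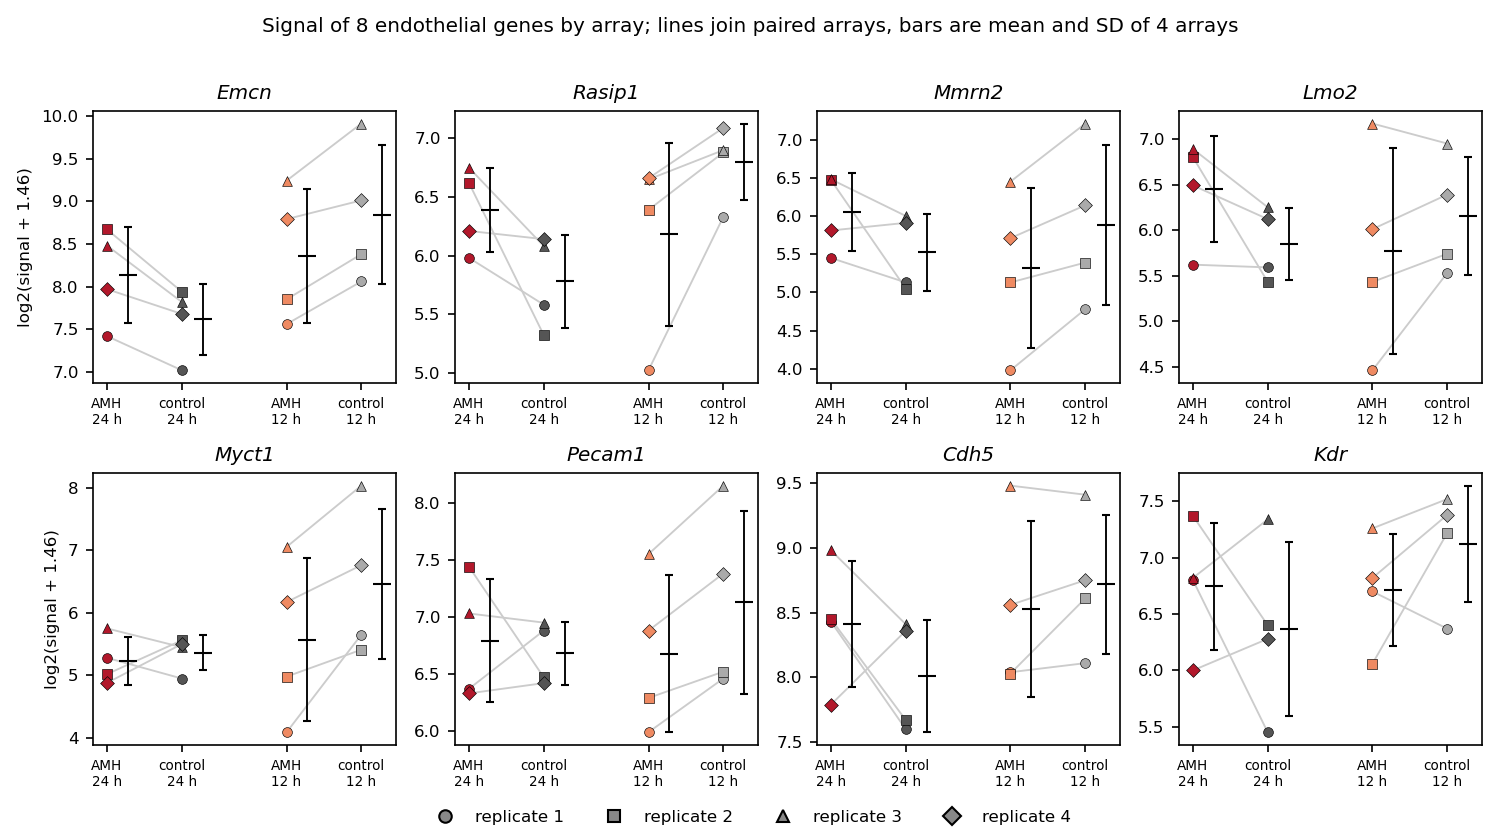
Log2 level of 8 endothelial genes in each array, with AMH left of its control and 24 h left of 12 h. Marker shapes are replicates, grey lines join the arrays of a pair, and bars give the mean and SD of 4 arrays. For Emcn and Rasip1 every line falls to the right at 24 h and rises to the right at 12 h.

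In the control follicles most endothelial genes lay lower at 24 h than at 12 h. Of the 27 genes, 24 had a change below 0, against 52.2% of all genes, and the median change was -0.59, against -0.02 over all genes. Without replicate 3 the median was -0.25 (21 below 0), and without the 12 h arrays of replicate 3 alone it was -0.26 (19 below 0). With array weights it was -0.06, with 15 below 0, against 52.3% of all genes. By limma 2 passed, Rasip1 and Emcn, both lower at 24 h. Of all genes, 20.2% were called in either direction and 9.86% were called lower, so that 2 of 27 is not above the background. An unadjusted p under 0.05 was found for 6 of the 27, against 34.3% of all genes. Rasip1 and Emcn were also the only ones of the 27 with all 4 arrays at 24 h below all 4 at 12 h, against 11.5% of all genes.

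Rasip1 fell by 1.02 on the log2 scale (SE 0.33, adjusted p = 0.0371), or 2.03-fold, with 5.78 ± 0.40 in controls at 24 h and 6.80 ± 0.33 in controls at 12 h (SD, n = 4 each). Emcn fell by 1.22 (SE 0.41, adjusted p = 0.0457), or 2.33-fold, with 7.62 ± 0.41 at 24 h and 8.84 ± 0.82 at 12 h. Without replicate 2, 3 or 4 neither was called: the adjusted p of Emcn was 0.0704, 0.139 and 0.145, and that of Rasip1 0.203, 0.0958 and 0.0925. Without the 12 h arrays of replicate 3 alone, Emcn had -0.86 (adjusted p = 0.102) and Rasip1 -0.99 (adjusted p = 0.0721).

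The next smallest p values came from Ramp2, higher at 24 h by 0.76 (SE 0.27, adjusted p = 0.0564), from the transcription factor Ets1 at -0.98 (SE 0.38, adjusted p = 0.0746), from Esm1 at -1.16 (SE 0.46, adjusted p = 0.0857) and from the lymphatic growth factor receptor Flt4 at -1.29 (SE 0.52, adjusted p = 0.0904). Ramp2 had log2 levels of 9.44, 9.28, 9.53 and 8.97 in controls at 24 h, against 7.91, 8.62, 8.62 and 9.00 in controls at 12 h, so the lowest array at 24 h lay just below the highest at 12 h. Ets1 had 6.61, 6.20, 7.45 and 7.59 at 24 h, against 7.56, 7.65, 8.81 and 7.75 at 12 h. Of its 3 other probe sets, 1 passed, with -1.19 (adjusted p = 0.0408) in a fit of every probe set. The changes of the junction genes Cdh5 and Pecam1 were -0.71 (SE 0.34, adjusted p = 0.147) and -0.44 (SE 0.38, adjusted p = 0.443), and those of Kdr and Tek -0.76 (SE 0.38) and -0.62 (SE 0.40).

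With the replicate number as a block, which removes what replicates of one number share across both times, 7 endothelial genes were called in controls: Cdh5, Emcn, Esm1, Ets1, Flt4 and Rasip1 as lower and Ramp2 as higher. That fit called 22.6% of all genes, so 7 of 27 is near the background. The labels do not say that 12 h and 24 h cultures of one number shared a pool.

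In AMH-treated follicles the median change with time was close to 0, but it moved with single replicates. The median change of the 27 genes was 0.06, against -0.02 over all genes, with 16 above 0, against 47.6% of all genes. It was -0.29 without replicate 2 (11 above 0), 0.29 without replicate 4 (18 above 0) and 0.22 without the 12 h arrays of replicate 3 (21 above 0). By limma 0 were called, against 8.89% of all genes, and 0 had an unadjusted p under 0.05, against 24.5% of all genes. The smallest p was that of Ramp2, at 0.47 (SE 0.27, adjusted p = 0.305). Emcn averaged 8.13 ± 0.56 with AMH at 24 h and 8.36 ± 0.78 with AMH at 12 h, a change of -0.23 (SE 0.41), and Rasip1 averaged 6.39 ± 0.36 and 6.18 ± 0.78 there, a change of 0.21 (SE 0.33; SD, n = 4 each). Aplnr had -1.02 (SE 0.66) with AMH and -0.90 (SE 0.66) in controls. That the time change differed between arms is the difference tested above, which no endothelial gene passed.

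**Figure D4:**
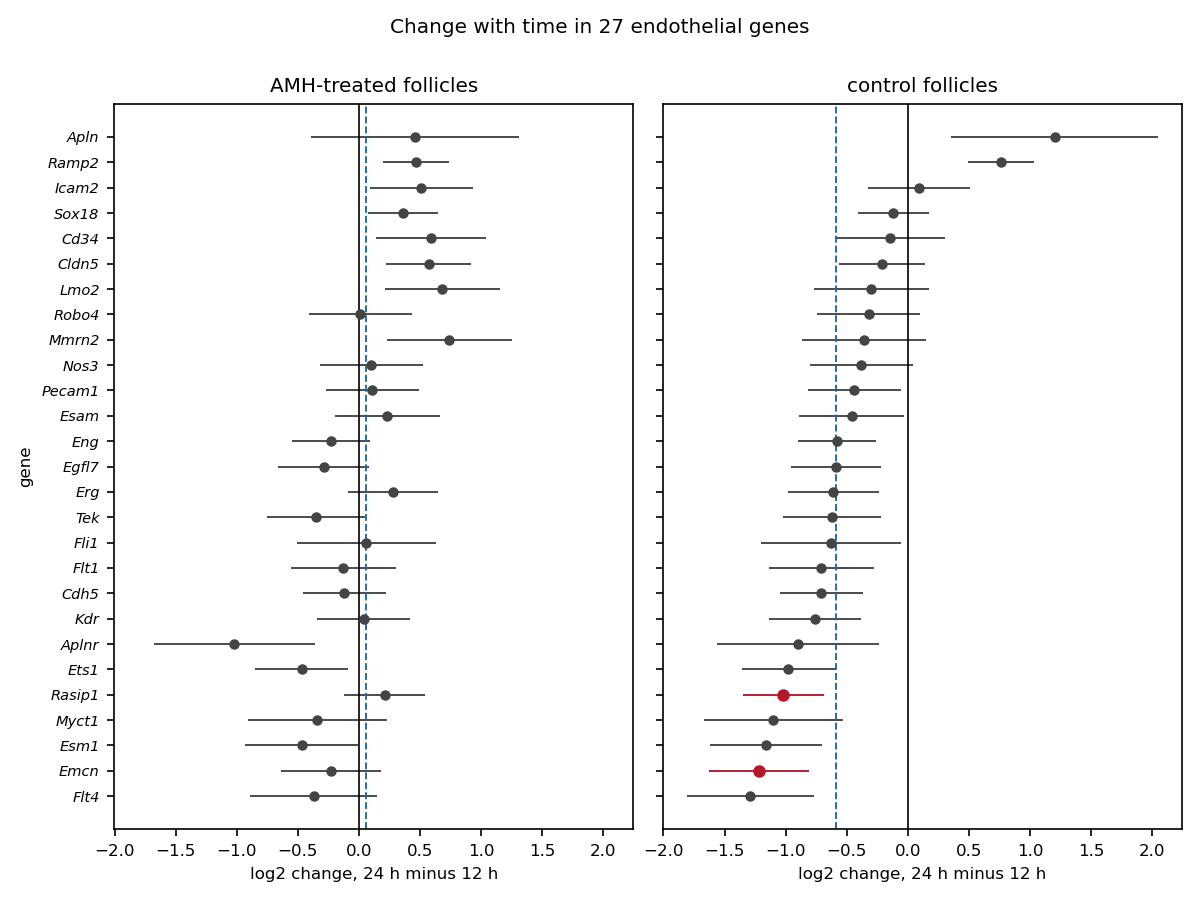
Log2 change between times, 24 h minus 12 h, of 27 endothelial genes in AMH-treated follicles (left) and control follicles (right), ordered by the change in controls. Points are fitted changes with standard errors, red where the adjusted p was under 0.05 (Emcn and Rasip1 in controls), and dashed lines are medians, 0.06 with AMH and -0.59 in controls.

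Other genes of endothelium, not among the 33, were described by lists. Of 18 further pan-endothelial genes 17 were measured, and their median change with AMH was 0.24 at 24 h, with 12 above 0, and -0.28 at 12 h, with 13 below 0. None was called at either time. The smallest p values at 24 h were those of Clec14a, an endothelial lectin (0.66, SE 0.21, adjusted p = 0.877), Procr, the protein C receptor (0.40, SE 0.14, adjusted p = 0.98), and the SOX factor Sox7 (0.85, SE 0.32, adjusted p = 1), while Heg1 lay below 0 (unadjusted p = 0.0313 by limma). At 12 h they were those of Thbd, thrombomodulin (-0.68, SE 0.21, adjusted p = 0.565), Adgrl4 (-0.78, SE 0.33, adjusted p = 0.712) and the phosphatase Ptprb (-0.55, SE 0.27, adjusted p = 0.765). The median difference between the effects was 0.68, with 13 of 17 above 0.

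With time, 3 of these 17 fell in controls, where 9.86% of all genes were called lower. Procr fell by 2.41 (SE 0.22, adjusted p = 1.56e-05), Thbd fell by 1.63 (SE 0.34, adjusted p = 0.00394) and the flow-sensitive factor Klf4 fell by 1.12 (SE 0.28, adjusted p = 0.0104). Procr had log2 levels of 7.59, 8.37, 8.32 and 8.43 in controls at 24 h, against 10.44, 10.26, 10.92 and 10.72 in controls at 12 h, so the times did not overlap. Procr and Klf4 are also made by other cells of the follicle. With AMH, where 4.23% of all genes were called lower, 3 fell with time, Procr with a change of -1.73 (SE 0.22, adjusted p = 0.000314), Klf4 with -1.07 (SE 0.28, adjusted p = 0.0249) and Klf2 with -1.13 (SE 0.32, adjusted p = 0.0388), while Clec14a rose by 1.66 (SE 0.29, adjusted p = 0.00251). Clec14a had 7.16, 6.60, 6.55 and 6.52 with AMH at 24 h, against 4.83, 4.59, 5.51 and 5.26 with AMH at 12 h. Genes called in 1 arm only had uncalled changes of the same sign in the other. In controls these were 0.72 (SE 0.29, adjusted p = 0.089) for Clec14a and -0.75 (SE 0.32, adjusted p = 0.11) for Klf2. With AMH Thbd had -0.77 (SE 0.34, adjusted p = 0.175).

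Of 9 arterial genes 8 were measured, with a median change with AMH of 0.12 at 24 h and -0.40 at 12 h. The ephrin Efnb2 had -0.47 (SE 0.12, adjusted p = 0.455) at 12 h, and Notch4 0.54 (SE 0.21, adjusted p = 1) at 24 h. In controls all 8 lay lower at 24 h than at 12 h, with a median of -0.62, but none passed. Of 7 venous and activation genes 5 were measured, with medians of 0.35 at 24 h and 0.04 at 12 h. Nrp2 rose with time by 0.99 in AMH-treated follicles (SE 0.24, adjusted p = 0.0179), and had 0.62 in controls (SE 0.24, adjusted p = 0.081). The difference between these arms was 0.38 (SE 0.28, adjusted p = 0.929). Of 4 lymphatic genes only Lyve1 and Pdpn were measured. Pdpn fell by 0.43 in controls with time (SE 0.11, adjusted p = 0.0128), though it is also made by other cells. With AMH the change of Pdpn with time was -0.26 (SE 0.11, adjusted p = 0.155).

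Of 12 ligands that act on vessels 8 were measured, with medians of 0.31 at 24 h and -0.08 at 12 h, and none was called with AMH. Slit3, a guidance ligand whose receptor family includes Robo4, had 1.26 (SE 0.28, adjusted p = 0.524) at 24 h and 0.54 (SE 0.28, adjusted p = 0.784) at 12 h. Angpt2, the angiopoietin that destabilises vessels, had 0.48 (SE 0.18, adjusted p = 1) at 24 h. In controls Slit2 fell with time by 1.58 (SE 0.30, adjusted p = 0.00207) and Angptl4 by 0.69 (SE 0.18, adjusted p = 0.0136), while Vegfa had -0.60 (SE 0.48, adjusted p = 0.406). With AMH, Angptl4 fell with time by 0.69 too (SE 0.18, adjusted p = 0.0247), and Slit2 had -0.95 (SE 0.30, adjusted p = 0.0581).

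Markers of other cell types were read beside these results. At 24 h all 9 measured stroma genes and all 9 measured leukocyte genes lay above 0 with AMH, with medians of 0.41 and 0.69, and so did 9 of 10 pericyte and smooth muscle genes, with a median of 0.38. At 12 h, where the endothelial median was -0.39, the stroma median was 0.48 (7 of 9 above 0), the leukocyte median 0.06 (7 of 9) and the pericyte median -0.04 (4 of 10). Also at 12 h all 7 measured granulosa genes lay above 0 (median 0.25). Of the oocyte genes 10 of 11 (median -0.12) lay below 0, and of the surface epithelium genes 8 of 9 (median -0.15). Of 9 theca genes 6 were measured, with 3 above and 3 below 0 at each time. Their median was -0.08 at 24 h and -0.03 at 12 h. The oocyte mean differed by -0.55, -0.05, -0.99 and 0.92 in pairs 1 to 4 at 12 h, so pair 4 ran the other way. So it did for the granulosa mean, which differed by 0.59, 0.42, 0.43 and -0.27 in these pairs. An unadjusted p under 0.05 by limma was found at 12 h for 4 stroma and 2 granulosa genes, all higher with AMH, against 6.63% of all genes. At 24 h it was found for 5 stroma, 2 leukocyte and 1 pericyte and smooth muscle genes, all higher, against 4.10% of all genes. Of the surface epithelium genes 1 had it at 24 h, lower with AMH, and of the theca genes 1, higher with AMH. None of these genes was called with AMH at either time. The mean level of the leukocyte genes at 12 h ranged over 5.92 to 6.89 in AMH-treated follicles and 5.87 to 7.30 in controls. In pairs 1 to 4 at 24 h the mean of the 27 endothelial genes differed by -0.14, 0.85, 0.42 and -0.17 with AMH. The stroma mean differed by 0.58, 0.94, 0.42 and -0.15 in the same pairs, the pericyte and smooth muscle mean by 0.09, 0.96, 0.24 and -0.04, and the leukocyte mean by -0.46, 0.87, 0.93 and 1.19. The endothelial, stroma and pericyte means were all highest over control in pair 2 and all below control in pair 4, where the leukocyte mean was above it. Their part in the endothelial changes was not tested.

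Markers of other cell types also changed with time. In controls all 7 measured granulosa genes lay higher at 24 h than at 12 h, with a median of 1.10, and 6 were called. Of 9 stroma genes 7 lay higher, with a median of 0.76, and 5 were called. All 6 measured theca genes lay higher too, with a median of 0.46, and 1 was called. Of the 11265 genes tested, 1165 were called higher and 1111 lower. By sign, 24 of 27 endothelial genes lay below 0. So did 7 of 9 leukocyte genes, with a median of -0.10 and 2 called lower. Of the oocyte genes 9 of 11 lay below 0, with a median of -0.35 and 0 called. Of the surface epithelium genes 6 of 9 did, with a median of -0.32 and 2 called lower. Pericyte and smooth muscle genes were split, with 5 of 10 below 0. Granulosa means ranged over 9.55 to 10.30 in controls at 24 h and 7.78 to 9.15 in controls at 12 h. Control replicate 3 at 12 h, with the highest endothelial level, had the lowest granulosa mean, 7.78, and the highest oocyte mean, 9.62. The part of these shifts in the endothelial values was not tested. Of 6 red blood cell genes none lay over the filter, and of 6 platelet genes only Pf4 did.

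**Figure D5:**
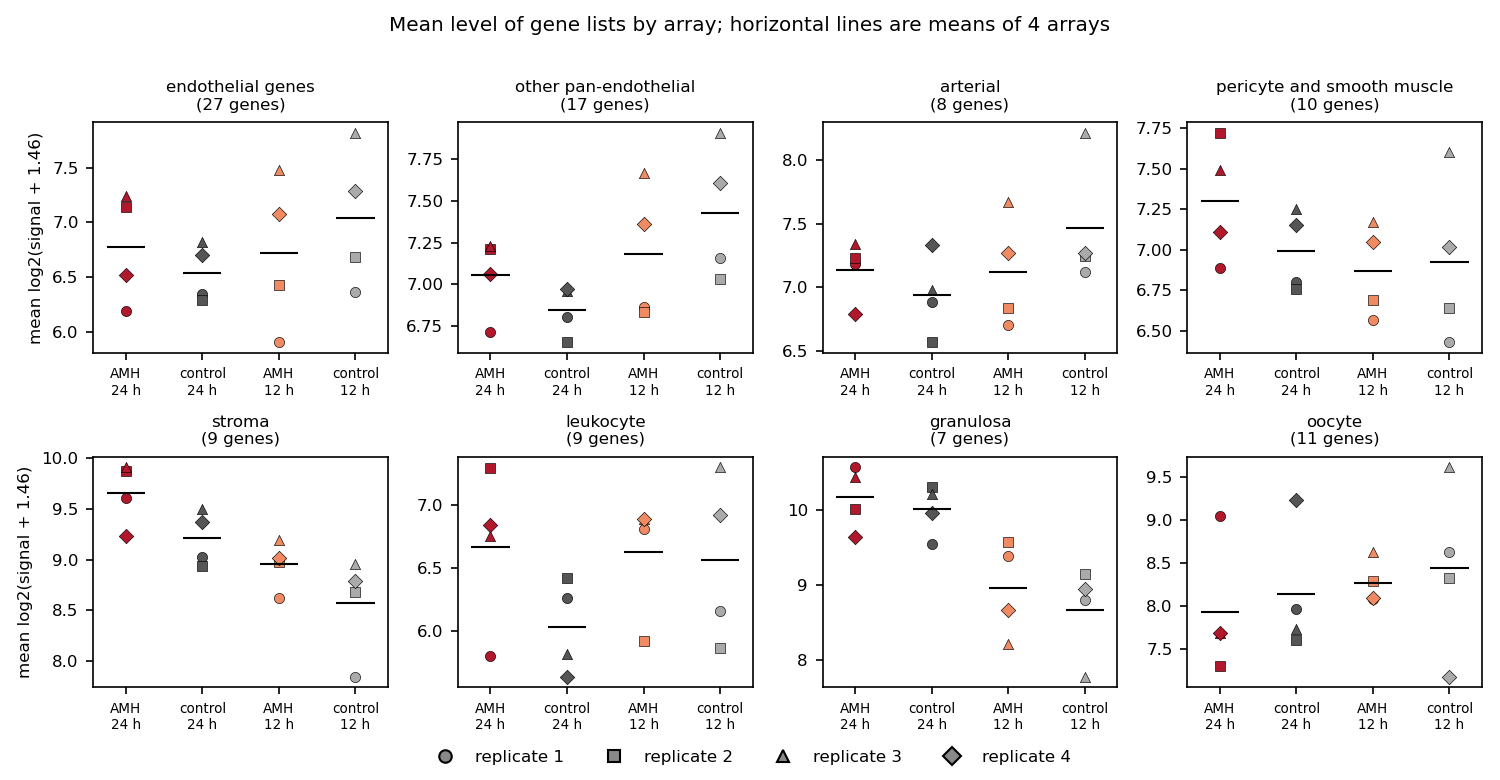
Mean log2 level of 8 gene lists in each array, with AMH left of its control and 24 h left of 12 h; shapes are replicates and lines are means of 4 arrays. The endothelial lists are highest in replicate 3 of the controls at 12 h, where the granulosa list is lowest, and the granulosa means of both arms are higher at 24 h than at 12 h.

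The 6 genes under the filter are close to background and their changes come from a fit without the filter. Tie1 had log2 levels of 4.25, 4.79, 4.80 and 3.78 with AMH at 24 h, against 3.99, 3.88, 4.64 and 4.70 in controls at 24 h, and 1.96, 3.90, 4.76 and 4.03 with AMH at 12 h, against 4.31, 4.63, 5.16 and 4.86 in controls at 12 h. Its change was 0.10 (SE 0.39, adjusted p = 1) at 24 h and -1.08 (SE 0.39, adjusted p = 0.762) at 12 h, and the array of replicate 1 with AMH at 12 h was the lowest. Sox17 had -0.26 at 24 h and -0.81 at 12 h, Plvap, a protein of capillary fenestrae, 0.29 and -0.58, Gpihbp1, which holds lipoprotein lipase on capillaries, 0.53 and -0.12, Vwf -0.16 and 0.20, and Tal1 -0.32 and 0.47. No adjusted p among these was under 0.05 in any of the 6 comparisons.

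Of the 33 genes 12 had more than 1 probe set, and the choice changed a sign in few cases with AMH. The second probe sets that ran against the one used were Mmrn2 at 12 h (0.18, against -0.56), Aplnr at 12 h (-0.21, against 0.27) and Fli1 at 24 h (-0.18, against 0.27). That of Aplnr also did so for the difference between the effects (0.35, against -0.12). The second probe sets of Cdh5 and Erg gave 0.29 and 0.48 at 24 h, against 0.40 and 0.33 in the ones used, and -0.15 and -0.61 at 12 h, against -0.19 and -0.55.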

How the data were processed

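One Affymetrix mouse array was measured for each of 16 samples. Each probe set had a linear intensity that the authors computed by the MAS5 algorithm before they deposited it, per the submitters' processing notes (version not given in the sources used here). In all, 45101 probe sets were listed. The 64 controls stayed out, 34945 had 1 gene symbol in the platform annotation and 932 several. Signals became log2(signal + 1.46), the offset being the 10th percentile. Each gene kept its brightest probe set if its mean reached the 40th percentile of probe sets with 1 symbol (log2 4.80, signal 26.4). All sample columns were used.

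Fits used limma 3.58.1 in R 4.3.3, with a variance trend and Benjamini-Hochberg adjustment. AMH comparisons had the 8 pairs as a block, since the design text states that samples are comparable in pairs. As a check, each pair's departures from the group means were set against each other, with correlations of 0.329, 0.372, 0.584 and 0.225 at 12 h and -0.489, 0.338, 0.219 and -0.319 at 24 h. Those of pairs 1 and 4 at 24 h lay below 0, so pair counts there rest on the stated pairing alone. Time comparisons used 4 group means. Fits were tested on simulated data with independent noise in each array. No pair effects were simulated, so the block by pair was not tested under pairing. Figures used matplotlib 3.10.9 in Python 3.11.15.

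The members and lists were chosen with earlier results of these data known. Arrays are given in full for 6 defining markers (Pecam1, Cdh5, Kdr, Tek, Tie1, Emcn), members called, and the 4 with the smallest p in each AMH comparison; Apln, Ramp2, Ets1, Procr and Clec14a were added after their values were seen. Alternatives were other offsets, filters, scalings, probe sets, array weights, robust moderation, blocks and each replicate left out; a filter over all probe sets and leaving out the 12 h arrays of replicate 3 were chosen after seeing the data.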

Additional observations from a re-analysis of the deposited data

Results flagged for a closer look

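Of 48 groups of levels examined (12 genes in 4 groups), 1 held an array that stood apart: Rasip1 in AMH-treated follicles at 12 h, where replicate 1 had a log2 level of 5.02 and the other 3 arrays lay between 6.39 and 6.66. Chance alone flags about 1 in 20 such groups. Without replicate 1 the change of Rasip1 with AMH at 12 h was -0.39, against -0.62 with all pairs.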

How the results depend on the processing

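In the AMH comparisons no endothelial gene was called under any setting tried, except Emcn for the difference between times with array weights (1 gene called; 1.10, adjusted p = 0.029). The fit with no replicate block changed no AMH call (0 endothelial genes). The median change of the 27 genes with AMH lay between -0.41 and -0.36 at 12 h and between 0.04 and 0.46 at 24 h on dropping single replicates, and the median difference between 0.35 and 0.78. Median centring shifted the median of all genes to 0.12 at 24 h, 0.15 for the difference and -0.20 for time in controls, and the 27 genes moved with it to 0.43, 0.75 and -0.77.

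For time in controls the 2 calls became 1 with no filter (Rasip1; Emcn at an adjusted p of 0.0576), 1 with the 60th percentile filter (Emcn), 5 with median centring (Emcn, Esm1, Ets1, Flt4 and Rasip1; 21.6% of all genes), 7 with the replicate block by replicate number (22.6% of all genes), between 0 and 3 with each replicate left out, and 0 without the 12 h arrays of replicate 3. The median there was -0.25 without replicate 3 and -0.06 with array weights, which turned Kdr to 0.03 and Pecam1 to 0.07 and called Rasip1 and Ramp2 but not Emcn (adjusted p = 0.0615).

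Values whose sign turned, none of them called, were these. Leaving out single replicates or the 12 h arrays of replicate 3, Tek ranged from -0.01 to 0.18 at 12 h, Pecam1 from -0.18 to 0.32 at 24 h, and over both times Kdr from -0.30 to 0.12 and Emcn from -0.01 to 0.05. Kdr over both times was 0.02 with quantile normalization and with median centring. In AMH-treated follicles over time, Kdr ranged from -0.39 to 0.32, Pecam1 from -0.23 to 0.41, Cdh5 from -0.29 to 0.20 and Emcn from -0.58 to 0.07, the upper ends of the last 3 without the 12 h arrays of replicate 3. The causes were not tested.

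Probe sets near the filter level carry little signal over background, and detection calls were not analysed here.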
